A study of Mus musculus with 4 samples.

Results

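Cyclin-dependent kinase (CDK) inhibitors are small proteins that hold cells out of the division cycle, and the 7 mouse genes that encode them were examined here for open chromatin. The genes were Cdkn1a, Cdkn1b and Cdkn1c of the Cip/Kip family and Cdkn2a, Cdkn2b, Cdkn2c and Cdkn2d of the INK4 family. Each was taken by name from the RefSeq gene table, and all 7 of the 7 were found. Their accessible regions were all peaks that overlapped the gene body or the 50 kb on either side, joined across the 4 peak lists where they shared 1 bp. This gave 68 distinct regions of 77914 in the genome, of which 4 lay in the windows of both Cdkn2a and Cdkn2b. The rule that finds the regions uses position alone. Positions are on build mm10 (GRCm38.p6), and the gene table gives no exons, so regions are placed only in or outside gene bodies.

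The libraries came from MPP3 cells, a multipotent blood progenitor with a bias towards granulocytes and monocytes, which were flow sorted from the bone marrow of mice named WT-iMOS at 3 months of age. ATAC-seq, in which a transposase cuts and tags open chromatin, was run on 2 libraries named T1 and 2 named T2. Age, mouse strain name and sorted population were shared by both groups, no treatment was given in the labels, and the meaning of T1 and T2 is left unexplained there. The stated purpose was the intrinsic role of the transcription factor Bcl11a in MPP3 cells, and nothing in the labels says which group, if either, carries a change at Bcl11a. The labels do not tie the libraries to separate mice, so the spread between them may be technical.

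Cip/Kip inhibitors bind complexes of cyclins with CDKs, above all CDK2. INK4 inhibitors bind CDK4 and CDK6 and keep them from D-type cyclins. Both leave the retinoblastoma family of pocket proteins unphosphorylated, so that E2F factors stay repressed and the cell does not enter S phase. In blood, p57Kip2 (Cdkn1c), p27Kip1 (Cdkn1b) and p18Ink4c (Cdkn2c) are known for their part in stem and progenitor cell quiescence, p21Cip1 (Cdkn1a) is the classical p53 target, and the Cdkn2a locus is silenced by Polycomb proteins in young progenitors.

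The start-site sequences of Cdkn2a and Cdkn1a are shown first, because each gene has one start that was open in all libraries and another that was not. They run from 250 bases before the start to 50 bases after it, on the strand of the gene (RefSeq, build GRCm38.p6). The first comes from the start of the p16Ink4a transcript of Cdkn2a (chr4:89282143-89282442, minus strand), where only the T2 libraries had a peak. The second comes from the start of the p19Arf transcript of the same gene (chr4:89294570-89294869, minus strand), which had a peak in all 4 libraries. The third and the fourth are the upstream start of Cdkn1a (chr17:29090729-29091028, plus strand), without a peak in any library, and its downstream start (chr17:29093519-29093818, plus strand), with a peak in all 4. The last is the start of Cdkn2d (chr9:21291160-21291459, minus strand), whose peak was the most significant among the starts of the 7 genes. Capitals mark matches to 7 short motifs and to the p53 pair described below.
Cdkn2a, p16Ink4a start: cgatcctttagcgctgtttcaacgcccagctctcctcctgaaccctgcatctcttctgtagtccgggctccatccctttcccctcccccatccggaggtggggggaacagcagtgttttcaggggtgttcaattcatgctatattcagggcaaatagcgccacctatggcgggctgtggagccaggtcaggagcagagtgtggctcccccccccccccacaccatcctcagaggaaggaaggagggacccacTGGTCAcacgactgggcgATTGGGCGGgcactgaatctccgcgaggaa
Cdkn2a, p19Arf start: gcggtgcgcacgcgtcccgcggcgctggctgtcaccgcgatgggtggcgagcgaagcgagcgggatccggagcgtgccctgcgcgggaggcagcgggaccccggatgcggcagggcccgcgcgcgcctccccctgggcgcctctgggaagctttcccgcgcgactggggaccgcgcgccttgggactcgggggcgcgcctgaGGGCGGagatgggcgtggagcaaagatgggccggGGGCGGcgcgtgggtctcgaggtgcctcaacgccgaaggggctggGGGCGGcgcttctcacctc
Cdkn1a, upstream start: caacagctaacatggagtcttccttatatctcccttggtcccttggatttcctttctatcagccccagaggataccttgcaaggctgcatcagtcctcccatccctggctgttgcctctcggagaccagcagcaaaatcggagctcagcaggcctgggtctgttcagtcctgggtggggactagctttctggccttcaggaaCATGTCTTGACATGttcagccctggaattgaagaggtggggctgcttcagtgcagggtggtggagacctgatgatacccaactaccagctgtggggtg
Cdkn1a, downstream start: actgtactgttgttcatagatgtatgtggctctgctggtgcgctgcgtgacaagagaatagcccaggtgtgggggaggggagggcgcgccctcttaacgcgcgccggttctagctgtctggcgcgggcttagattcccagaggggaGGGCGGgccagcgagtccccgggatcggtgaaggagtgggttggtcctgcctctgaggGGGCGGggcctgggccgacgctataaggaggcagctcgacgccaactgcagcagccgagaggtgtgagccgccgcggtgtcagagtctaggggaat
Cdkn2d start: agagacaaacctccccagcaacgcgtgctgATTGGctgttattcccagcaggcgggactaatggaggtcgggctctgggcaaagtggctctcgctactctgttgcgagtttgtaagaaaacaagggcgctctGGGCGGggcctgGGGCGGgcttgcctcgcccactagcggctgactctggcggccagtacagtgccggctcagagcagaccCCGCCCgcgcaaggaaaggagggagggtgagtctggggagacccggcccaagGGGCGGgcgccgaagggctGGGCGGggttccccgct

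The motifs were searched on both strands, and a match is a description of letters, not a binding site. The GC box (GGGCGG, bound by Sp factors) was held by 35.7% of 32851 mouse promoters of this length, and the CCAAT box (CCAAT) by 37.4%. The p16Ink4a start had 1 GC box and 1 CCAAT box, read on the reverse strand as ATTGG, and these overlapped. The same sequence had 1 match to TGACCA, the motif of BCL11A, read on the reverse strand as TGGTCA, at 2 bases after the start. TGACCA was held by 13.6% of all promoters and by no other of the 9 promoters of these genes in the table. The p19Arf start had 3 GC boxes, and Cdkn2d had 5 with 1 CCAAT box. The downstream Cdkn1a start had 2 GC boxes, while its upstream start had none. The upstream start instead held a pair of CATG cores with 6 bases between them (CATGNNNNNNCATG), the form of a p53 site, at 48 bases before the start. That motif was added after the sequences were seen and was held by 0.712% of all promoters. None of the 9 promoters matched the ETS (CCGGAAG, 8.86% of promoters), RUNX (TGTGGT, 16.8%) or FOXO (GTAAACA, 3.65%) motifs. The E-box CACGTG (7.15%) was matched once, at the downstream start of Cdkn2c. GC content was 77.0% at the p19Arf start and 60.3% at the p16Ink4a start, against a median of 52.7% over all promoters. Cdkn1c was not among the promoters in the table.

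A peak's strength is given below as its deposited −log10 q, the significance of the pile-up over the local background in its own library, which grows with depth as well as with openness. Libraries were therefore compared by rank: a percentile of 100 is the strongest region of that library among the 44274 regions with a peak in all 4 lists, called shared regions. A T1-only or T2-only region had a peak in both libraries of one group and in neither of the other. In sorted populations, fewer cells with an open site and less opening per cell cannot be told apart. RNA was not measured in these files, so no statement on expression follows. With 2 libraries against 2, the smallest two-sided p of an exact permutation test is 0.333, and differences are given as values. Genome shares are given for the counts. For all but the lowest 5% and the highest 5% of shared regions, the mean percentile in T2 minus that in T1 lay between -18.94 and 18.54 points.

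The lists held 58454 and 54045 peaks in T1 and 66764 and 62704 in T2, and the median −log10 q ranged from 20.5 to 23.9. Read depth is unknown. Across the genome, T2-only regions (5364) outnumbered T1-only regions (1814), in the direction of the longer T2 lists, and with all lists shortened to 54045 peaks the counts were 2958 and 3145. As a check of the sorted population, 6 of 7 progenitor marker genes with a listed start had a start peak in all 4 libraries (Kit, Cd34, Cd48, Ptprc, Cebpa and Flt3). The other, Mpo, had a peak in T2 and none in T1. Of markers of other cells with a listed start, all 3 for megakaryocytes (Gp9, Pf4 and Itga2b) had a start peak in all 4 libraries. So did 1 of 3 for T cells (Lck, with no peak in any library at Cd3d and Cd3e), 1 of 2 for endothelium (Kdr, with Tek in some libraries) and 2 of 3 for epithelium (Epcam and Krt18, with no peak at Krt8). None of the 2 for B cells did (Cd79a and Pax5 had a peak in some libraries), and the 2 erythroid and 2 stromal ones had no peak in any library. These lists do not tell MPP3 cells from other progenitors, and the part of other cells in the results below was not tested.

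Of the 68 regions at the CDK inhibitor genes, 42 (61.8%) were shared, 8 (11.8%) were T2-only and 1 (1.47%) was T1-only. The other 17 (25%) were present in some other mix of libraries, 11 of them in 1 library alone. Over all 77914 regions, 56.8% were shared, 6.88% were T2-only and 2.33% were T1-only. Peaks were found in 49 and 47 of the 68 regions in T1 and in 59 and 57 in T2, a mean of 48 ± 1.41 against 58 ± 1.41 (SD, n = 2, exact permutation p = 0.333, two-sided, the smallest possible). The T2 libraries were both higher, as they were over all regions, where 74.4% and 68.3% had a T1 peak and 84.9% and 79.2% a T2 peak. At the members these shares were 72.1% and 69.1% in T1 and 86.8% and 83.8% in T2. In lists shortened to 54045 peaks, 4 regions were T2-only and 2 were T1-only at these genes. The T1-only count was 3 instead of 1 without T1 replicate 1 and also without T1 replicate 2.

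**Figure D1:**
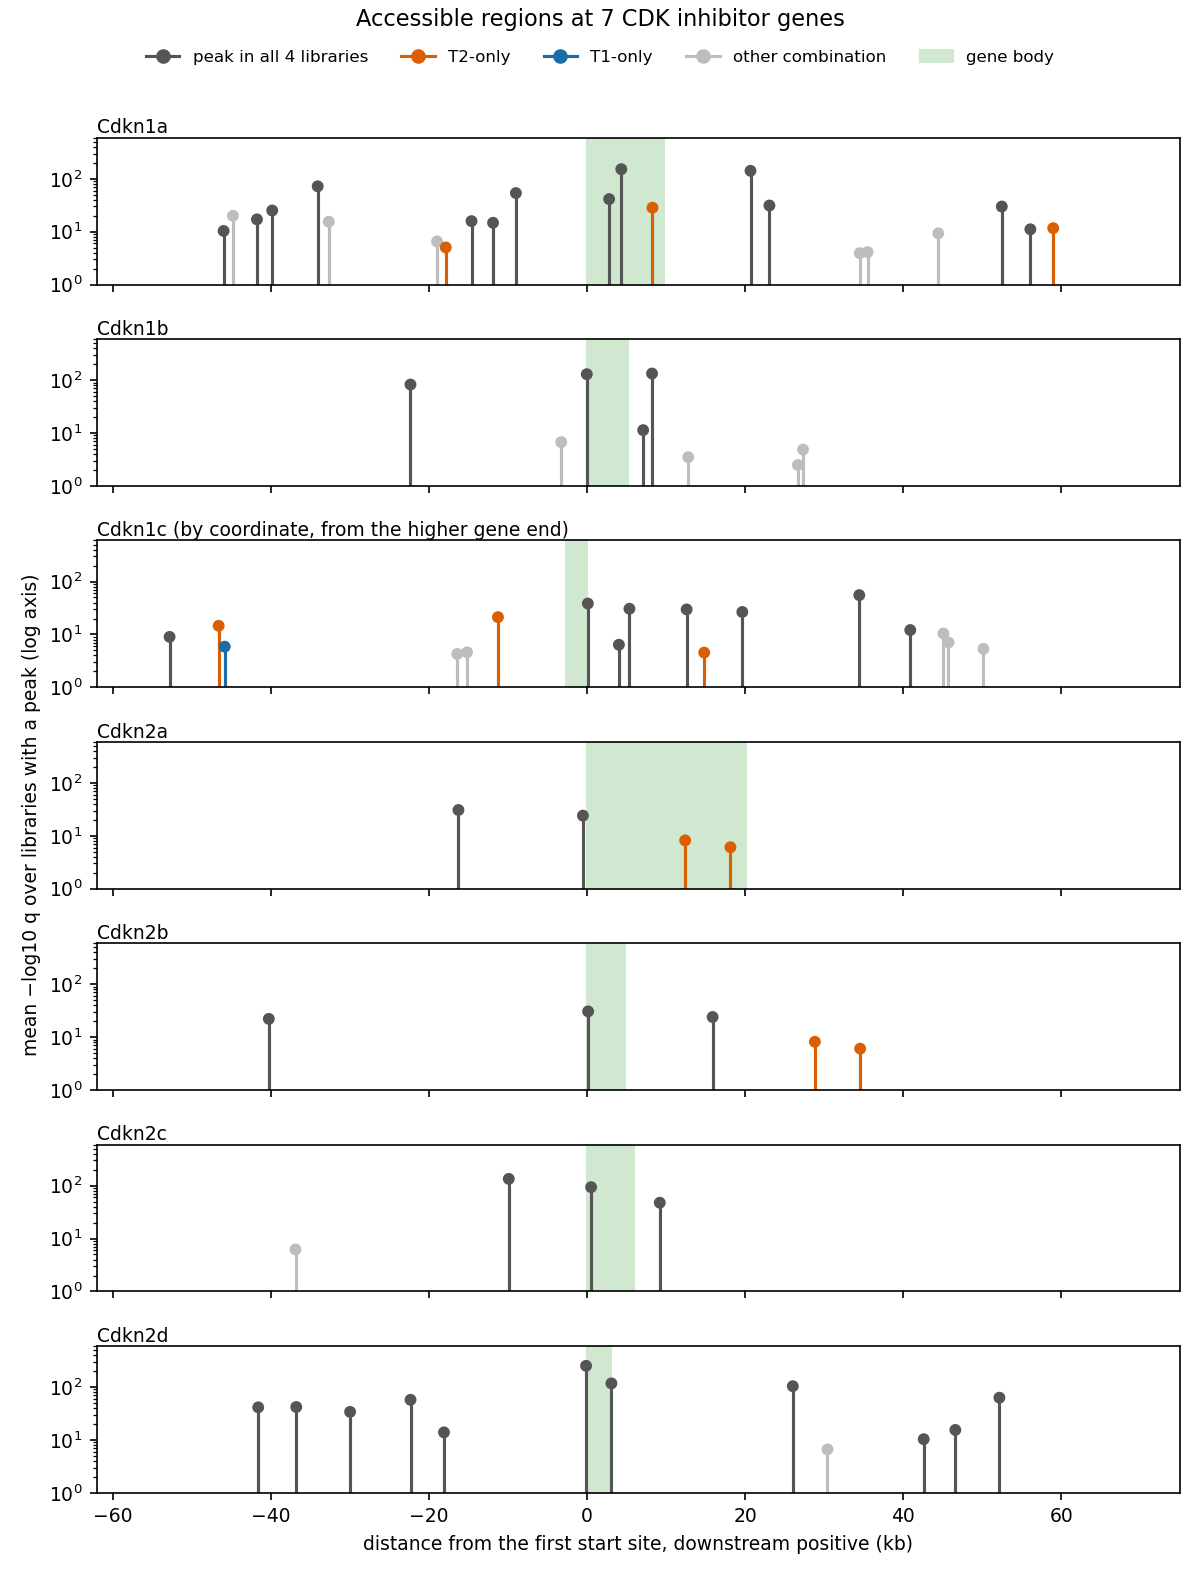
Each stem is 1 accessible region in the window of 1 of the 7 genes. The x axis gives the distance in kb from the first start site (by coordinate from the higher gene end for Cdkn1c), the y axis (log scale) the mean −log10 q over the libraries with a peak, colours the class of the region, and the green band the gene body. Cdkn1a and Cdkn1c held the most regions and 3 T2-only regions each, while Cdkn1b, Cdkn2c and Cdkn2d held none of either group alone.

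The genes differed in how many regions surrounded them. Cdkn1a had 22 regions, at the 97.6th percentile of the 21887 protein-coding genes (tied genes share their mean rank), and Cdkn1c had 17 (92.1th percentile). Cdkn2d had 12 (75.1th percentile) and Cdkn1b had 8 (53.2th percentile). Cdkn2b had 5 (36.0th percentile), and Cdkn2a and Cdkn2c had 4 each (30.9th percentile), below the genome median of 7 (quartiles 3 and 12). These windows, of 3 of the 4 INK4 genes, lay below the median but between the quartiles, and 2 of them share a locus. The windows also cover neighbouring genes, so these counts describe the locus and not the inhibitor gene alone. In the densest window, that of Cdkn1a, no region lay at a listed start of another gene. What sets the number of regions was not tested.

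**Figure D2:**
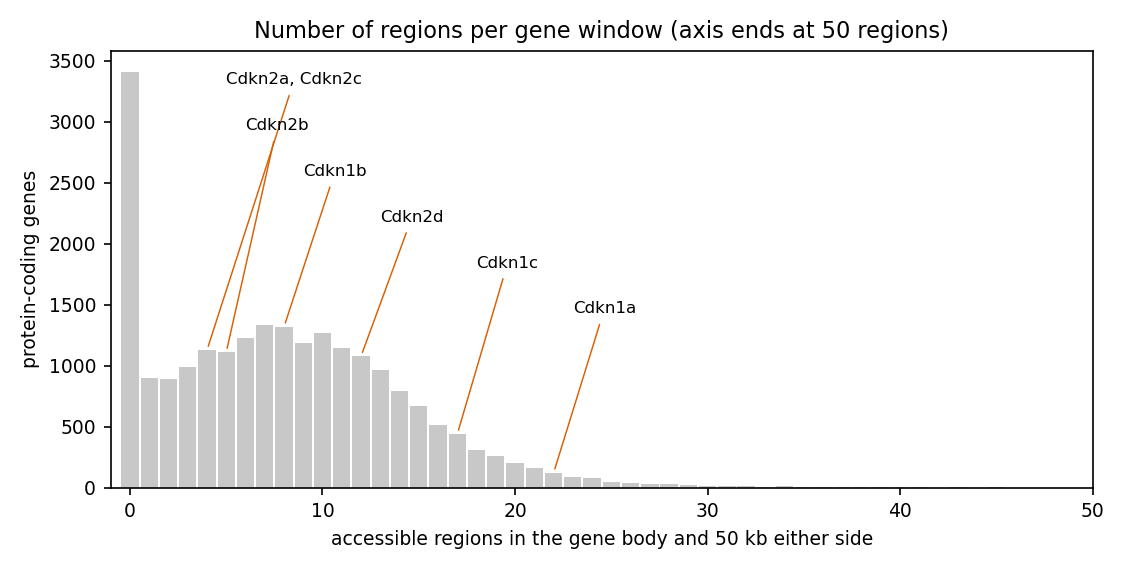
Histogram of the number of accessible regions in the gene body and 50 kb either side (x axis, ending at 50 regions) over 21887 protein-coding genes (y axis, number of genes), with lines at the 7 CDK inhibitor genes. Cdkn2a and Cdkn2c, with 4 regions, and Cdkn2b, with 5, lay left of the median of 7, and Cdkn1a lay far right at 22.

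At least 1 T2-only region was found at 4 of the 7 genes (Cdkn1a, Cdkn1c, Cdkn2a and Cdkn2b), against 35.0% of all protein-coding genes, and at least 1 T1-only region at 1 of 7 (Cdkn1c), against 13.6%. Cdkn2a and Cdkn2b had 2 each, which were the same regions, and 10.3% of genes had at least 2. Cdkn1a and Cdkn1c had 3 each, and 2.65% of all genes had at least 3. Among the 1960 genes with 17 or more regions, the number at Cdkn1c, that share was 14.6%. The Cdkn1a count was 5 in place of 3 without T1 replicate 1 and also without T2 replicate 1. At Cdkn2a and Cdkn2b it was 0 at a −log10 q of at least 10, in lists of equal length, and where peaks had to cover at least 0.5 of a region.

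Of 10 start positions counted, 8 had a shared region within 500 bp, 1 had a T2-only region and 1 had none. The strand of Cdkn1c was not given, so both of its gene ends were examined. The higher end, with a shared region, was counted, and the lower end, without a peak, was not. The shared call of Cdkn1c depends on that choice, and Cdkn1c is not among the listed start sites of the genome share below. Both starts of Cdkn2c lay in 1 region and were each counted. With peaks taken as 250 bp either side of summits, the count with a shared region was 7. Over 21263 listed start sites of protein-coding genes, 57.4% had a shared region and 1.06% a T2-only one.

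**Figure D3:**
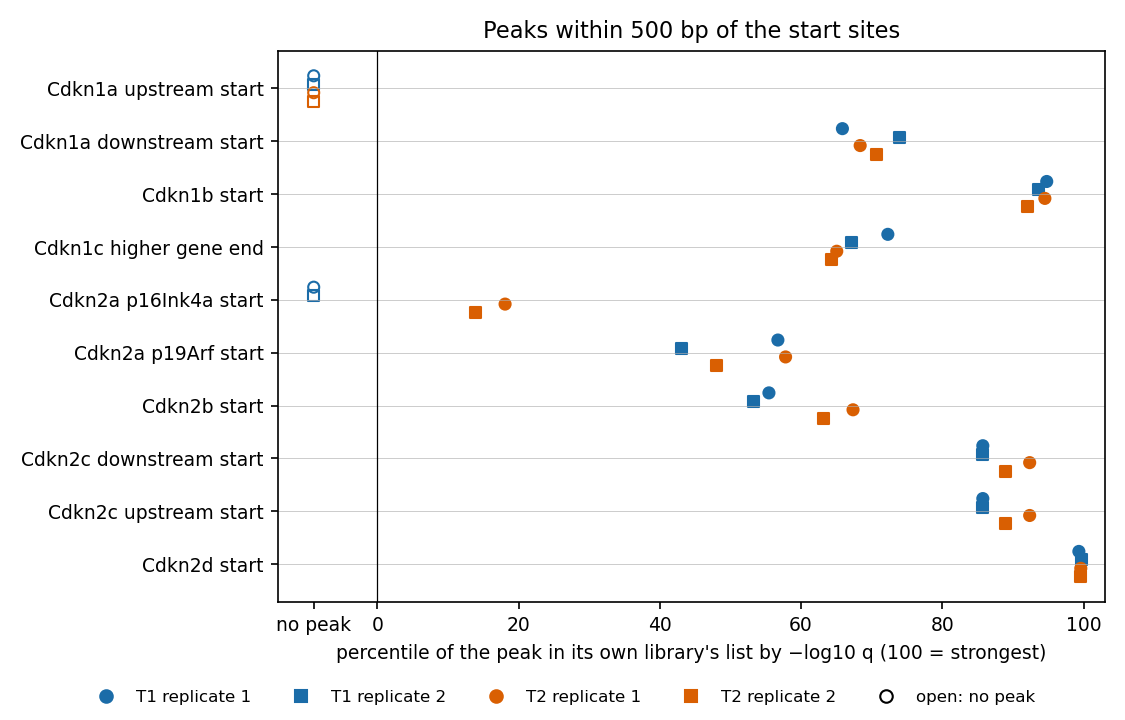
Percentile of the start-site peak in its own library's whole list by −log10 q (x axis, 100 is the strongest) for each start position (y axis). Filled markers are libraries with a peak and open markers at the left edge libraries without one. Only the T2 libraries had a peak at the p16Ink4a start, none had one at the upstream Cdkn1a start, and all 4 libraries lay close together near the top at Cdkn2d.

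Cdkn1a, encoding p21Cip1, an inhibitor of several cyclin-CDK complexes, lies on chromosome 17 (29090979 to 29100722, plus strand). Its upstream start, shown above with the p53-like pair, had no peak within 500 bp in any library. Its downstream start, at 29093769, had a −log10 q of 38.0 and 43.4 in T1 and 42.5 and 41.4 in T2. The percentiles were 55.2 and 68.2 against 52.8 and 58.8, and the groups overlapped. A gene with one shared start and one without a peak was common, at 25.6% of the 2761 genes with more than 1 listed start.

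The strongest region at Cdkn1a by mean percentile was not at either start but in the gene body downstream of both, at chr17:29094709-29095897. It reached 182 and 177 in T1 and 127 and 120 in T2, or percentiles of 95.7 and 98.1 against 88.7 and 91.5. Both T1 libraries stood above both T2 libraries, with a difference of the means (T2 minus T1) of -6.77 percentile points (96.9 ± 1.66 against 90.1 ± 1.99, SD, n = 2). A second region 8.52 kb upstream of the gene, chr17:29081477-29082456, followed the same order. Its −log10 q was 68.4 and 63.2 in T1 and 43.1 and 39.97 in T2, and its percentiles were 74.5 and 79.2 against 53.3 and 57.4. The means differed by -21.5 points (T2 minus T1), and the gap between the nearest libraries of T1 and T2 exceeded the range within either group. The region chr17:29111347-29111968, downstream of the gene near Rab44, was of similar strength, with 162 and 106 in T1 and 145 and 153 in T2, and its percentiles overlapped. Its mean percentile was 93.1, against 93.5 for the gene-body region, and it was the stronger of these in both T2 libraries. By fold it was the higher in every library but T1 replicate 2. Ranked among all peaks of a list, the differences of the gene-body and upstream regions were -4.32 and -12.6 points, and by fold the gene-body region differed by -21.8 points.

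Other regions at Cdkn1a were ordered the other way. The region chr17:29078752-29079390, at the edge of Trp53cor1 (the gene of lincRNA-p21, a long noncoding RNA next to Cdkn1a), had 8.63 and 4.27 in T1 and 32.8 and 13.2 in T2. Its percentiles of 6.83 and 1.78 in T1 lay below 42.0 and 15.5 in T2, but the T2 libraries were further apart from each other than the groups were. At a −log10 q of at least 5 or 10, and with 0.5 coverage, it was no longer ranked higher in T2. The difference was 24.5 points, against 9.24 by fold, 11.997 without T2 replicate 1 and 39.0 without T2 replicate 2. In all, 5 of the 13 shared regions at Cdkn1a ranked higher in both T1 libraries, 3 ranked higher in both T2 libraries and 5 overlapped. Over all shared regions of the genome, 26.2% ranked higher in T1 and 26.3% higher in T2. Ranked among all peaks of a list, chr17:29048839-29049555, chr17:29076177-29076527 and chr17:29113789-29114311 were no longer higher in T1. The regions higher in T2 kept their call under that ranking.

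**Figure D4:**
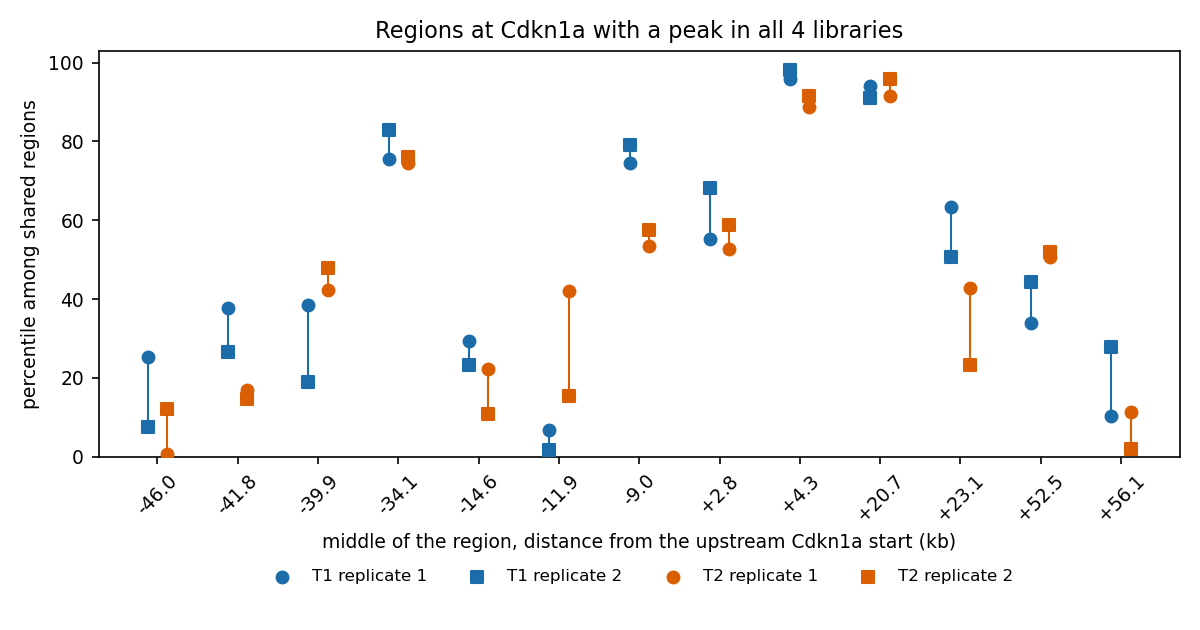
Percentile among shared regions (y axis, 100 is the strongest) in each of the 4 libraries for the 13 shared regions at Cdkn1a, ordered by distance in kb from its upstream start (x axis, not to scale). The region upstream of the gene with T1 values of 74.5 and 79.2 and T2 values of 53.3 and 57.4 shows the clearest gap with T1 on top, and the strongest regions lie in the gene body and downstream of it.

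The 3 T2-only regions of Cdkn1a differed in strength. The one inside the gene body, chr17:29099063-29099436, lay 5.29 kb downstream of the nearest start and reached 28.3 and 28.5 in the T2 libraries. It was stronger than 97.4% of all T2-only regions in the genome. The region chr17:29149811-29150130, nearer to the neighbouring gene Rab44, had 10.8 and 12.4 (59.1th percentile of T2-only regions). The region chr17:29072904-29073272, inside Trp53cor1, was weak at 5.49 and 4.57 (7.83th percentile). The first and the second stayed T2-only under every other peak threshold, list length and region definition tried.

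Cdkn1b encodes p27Kip1, the Cip/Kip inhibitor that accumulates in resting cells, and lies at chr6:134920401-134925525 on the plus strand. Its start region had −log10 q of 153 and 113 in T1 and 146 and 106 in T2. The percentiles, 93.1 and 92.2 against 91.7 and 88.8, put both T1 libraries above both T2 libraries. The difference of the means (T2 minus T1) was -2.40 points, smaller than the range within T2. Ranked among all peaks of a list the groups overlapped (-0.90 points), while by fold the difference was -6.64 points. It was -0.90 points without T2 replicate 2 and -3.80 without T2 replicate 1. Its strongest region by mean percentile, chr6:134928062-134929172, lay at the start of the noncoding gene Lockd just downstream, with 165 and 108 in T1 and 141 and 119 in T2 (percentiles 94.2 and 91.3 against 91.1 and 91.4), and the groups overlapped. No region at Cdkn1b was T1-only or T2-only, while 3 were T2-only without T2 replicate 2 and 2 were in windows of 100 kb either side.

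Cdkn1c encodes p57Kip2 and is imprinted, with its maternal copy expressed. It lies on chromosome 7 (143458339 to 143461059) beside Kcnq1, Slc22a18 and Phlda2 of the same imprinted cluster. A region at its higher gene end reached 48.0 and 34.3 in T1 and 38.0 and 33.4 in T2. The percentiles of 63.5 and 60.1 in T1 lay above 48.1 and 50.2 in T2, a T2 minus T1 difference of -12.7 points with a gap between the groups above the range within either (61.8 ± 2.44 against 49.1 ± 1.49, SD, n = 2). Ranked among all peaks of a list, T1 stayed on top with a difference of -5.05 points. The lower gene end had no peak. The strongest region in the window was chr7:143494913-143496095 in Slc22a18, with 48.1 and 41.7 in T1 and 80.7 and 50.8 in T2. Its percentiles of 63.5 and 67.0 against 76.1 and 66.9 overlapped.

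With the lists as deposited, group-only regions of both kinds were found at Cdkn1c and at none of the other members. Its T1-only region, chr7:143414904-143415486 inside Kcnq1, had 8.75 and 2.97, near the weakest value listed. A T2-only region, chr7:143414232-143414624, lay next to it in the same gene with 14.9 and 14.2 (73.6th percentile of T2-only regions). A second, chr7:143449646-143449907, between Kcnq1 and Cdkn1c, had 20.1 and 22.4 (91.3th percentile). The third, chr7:143475670-143476077 inside Slc22a18, was weak at 5.29 and 3.78 (5.03th percentile). The T1-only count at Cdkn1c was 0 at a −log10 q of at least 5 or 10 and with 0.5 coverage. It was 2 in lists of equal length and without T1 replicate 1. Cdkn1a had 1 T1-only region with 0.5 coverage and 2 without T1 replicate 2.

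Cdkn2a encodes 2 unrelated proteins from separate starts: p16Ink4a, an inhibitor of CDK4 and CDK6, and p19Arf, which stabilises p53 by binding Mdm2. The gene lies on chromosome 4 (89274473 to 89294619, minus strand). At the p19Arf start (89294619) the −log10 q was 28.3 and 17.0 in T1 and 30.2 and 20.8 in T2. The percentiles, 43.8 and 32.8 against 38.4 and 30.7, overlapped.

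At the p16Ink4a start (89282192) neither T1 list had a peak, and the T2 lists had peaks of 9.13 and 7.25 (chr4:89281900-89282518). Their summits lay 66 and 64 bases before the start. Both were weak, at the 18.1th and 13.9th percentiles of their lists, and 33.1% of all T2-only regions were weaker. The pair of one shared and one T2-only start was seen in 33 of the 2761 genes with more than 1 listed start (1.20%). The T2-only call of this start ended at a −log10 q of at least 10, where no library had the peak, and in lists of equal length. Where peaks had to cover at least 0.5 of the region, the region was no longer T2-only. The call of the start does not use coverage. A second T2-only region in the gene body, chr4:89276174-89276784, was weaker still at 6.90 and 5.25 (15.3th percentile of T2-only regions).

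Cdkn2b, encoding p15Ink4b, a CDK4 and CDK6 inhibitor induced by TGF-beta, lies next to Cdkn2a (chr4:89306289-89311032, minus strand). Its start region had 27.2 and 22.5 in T1 and 41.0 and 32.3 in T2. The percentiles of 42.3 and 44.1 in T1 lay below 51.3 and 48.7 in T2, by 6.85 points (43.2 ± 1.25 against 50.02 ± 1.87, SD, n = 2), and the gap between the groups exceeded the range within either. By deposited fold enrichment in place of −log10 q the groups overlapped, with a difference of 4.35 points, and among all peaks of a list the difference was 10.9 points. By −log10 q in the lists as deposited, the 3 starts of the Cdkn2a and Cdkn2b locus were T2-only, overlapping and higher in T2. The T2-only call and the higher-in-T2 call did not hold under every alternative.

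Cdkn2c encodes p18Ink4c and lies at chr4:109660876-109666756 on the minus strand. A single region covered both of its starts, with 88.0 and 72.6 in T1 and 126 and 88.8 in T2. Its percentiles were 81.2 and 82.6 against 88.5 and 84.4, higher in both T2 libraries by 4.55 points between the means. The nearest libraries of T1 and T2 were closer to each other than the T2 libraries were among themselves. By fold enrichment the groups overlapped, and without T2 replicate 1 the difference was 2.44 points. The strongest region in the window was at the start of the neighbouring Faf1, chr4:109676100-109677236, with 172 and 102.3 in T1 and 145 and 118 in T2.

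Cdkn2d encodes p19Ink4d, the INK4 inhibitor whose level changes through the cell cycle, and lies at chr9:21288459-21291421. Its start was the strongest region of the 7 genes, with 263 and 241 in T1 and 274 and 231 in T2. The percentiles of 99.1 and 99.6 in T1 and 99.4 and 99.4 in T2 overlapped, and the means differed by 0.01 points. Of its 12 regions 11 were shared and none was group-only, with 1 T2-only without T2 replicate 1. Of the 11 shared regions, 3 ranked higher in both T2 libraries and 2 in both T1 libraries. Over all shared regions of the genome these shares were 26.3% and 26.2%. At the start of Atg4d, an autophagy protease gene, the −log10 q was 80.9 and 74.4 in T1 and 149 and 111 in T2, with percentiles of 79.0 and 83.2 against 92.3 and 89.7, a difference of 9.86 points. A region inside Slc44a2, chr9:21332489-21333179, was ordered the other way, with percentiles of 68.8 and 65.1 in T1 above 44.4 and 51.9 in T2. That difference was -18.9 points, and -9.92 among all peaks of a list. The differences at Atg4d and Slc44a2 lay inside the genome range given above (-18.94 to 18.54 points).

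Over the 42 shared regions of the 7 genes, 9 (21.4%) ranked higher in both T2 libraries, 9 (21.4%) ranked higher in both T1 libraries and 24 overlapped. Over all shared regions 26.3% ranked higher in T2 and 26.2% higher in T1, so neither direction was more frequent here than in the genome. With the gap between the nearest libraries also required to exceed the range within each group, a rule chosen after the values were seen, 4 and 4 regions remained, where 10.7% of all shared regions did in T2 and 10.7% in T1. The median difference was -2.25 percentile points (T2 minus T1), against 0.02 over all shared regions of the genome, and these medians were not tested against each other. The range within a group had a median of 4.96 points in T1 and 4.91 in T2 over all shared regions, close to the median absolute difference between the groups of 5.97. The median width at the members was 383.5 bp for T2-only regions and 807.5 bp for shared ones. A region spans all peaks joined into it, so regions joined from more lists tend to be wider by definition. These widths were not compared with those of the genome.

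**Figure D5:**
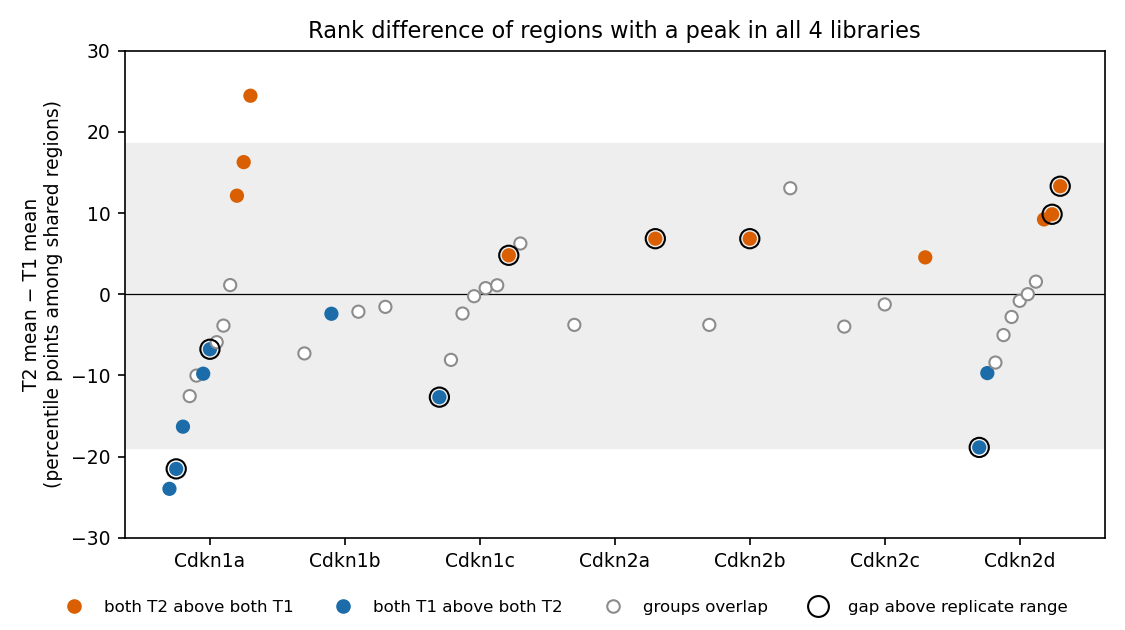
Difference of the mean percentile between T2 and T1 (y axis, percentile points, above 0 is higher in T2) for each of the shared regions, grouped by gene (x axis). Colours mark regions in which both libraries of one group lay above both of the other, rings those whose gap exceeded the range within each group, and white points overlapping groups. The grey band holds all but the lowest 5% and the highest 5% of shared regions in the genome. Points lie on both sides of 0 at every gene but Cdkn1b, where all lie below 0.

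The other genes of the pathway were taken from a list of 34, covering kinases and cyclins, pocket proteins and E2F factors, and regulators of the inhibitors. All 34 matched, with 453 regions, of which 276 (60.9%) were shared, 29 (6.40%) T2-only and 12 (2.65%) T1-only. These shares lay near the 6.88% and 2.33% of the genome. Kinases and cyclins, the targets of the inhibitors, had 9 T2-only and 3 T1-only regions of 127. Pocket proteins and E2F factors, which act downstream, had 6 and 3 of 90. Regulators of the inhibitors, among them Trp53, Foxo and Polycomb genes, had 14 and 6 of 236. The most group-only regions were at Smad3, a TGF-beta signal transducer, with 3 T2-only and 2 T1-only. Ccne1 (cyclin E1) had 2 and 2, E2f2 had 3 and 1, and Foxo3 had 2 and 1. Ccnd2 and Ccnd3, encoding D-type cyclins, Cdk4, and Cul1 of the ubiquitin ligase that degrades p27Kip1 had 2 T2-only regions each and no T1-only region. Their windows held 12, 26, 14 and 5 regions. Of the 24 list members with a listed start, 23 had a shared start region, all but E2f2.

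Start percentiles were also set beside those of these 23 genes, by the mean absolute difference over the 4 libraries. The nearest gene to Cdkn2d was E2f3 (0.861 points) and that to Cdkn1b was Ets2 (1.59 points). Cdkn2c lay nearest to Smad3 (4.23), Cdkn1c to Foxo1 (5.06), Cdkn1a to Cul1 (5.17) and Cdkn2b to Cbx7 (6.41). The p19Arf start lay nearest to Cdk6, at 8.68 points. These distances describe similar levels in the same 4 libraries and were given no test.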

How the data were processed

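ATAC-seq peak lists of 4 MPP3 libraries (T1 and T2, 2 each, grouped by title) were used. Bowtie2, SAMtools and MACS2 and the build mm10 are named in the submitters' processing notes, without versions or settings. How reads were filtered or shifted for the transposase is not given in the sources used. Each list has its own prefix in the peak names, so the authors made 1 set of peaks for each library. The deposited fold is a ratio of pile-up to local background within a library, and the deposited −log10 q its significance, at least 2.00 in every list. Neither is a count, so depth is unknown, no count model was fitted and values were compared only as ranks within a list.

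Lists were limited to chromosomes 1 to 19, X and Y, and peaks that shared 1 bp were joined. A region's value in a library was that of its strongest peak. Percentiles were taken among the 44274 regions shared by all 4 lists. Gene ends, start sites and promoters came from RefSeq tables on GRCm38.p6 (9 promoters for 6 of the 7 genes). The members and gene lists were chosen with earlier results of these data known. Named in the text are all members, neighbours nearer to a group-only region, the 8 pathway genes with most such regions (ties by alphabet) and the gene with the most similar start percentiles. Regions outside that rule were named after their values were seen. Alternatives were −log10 q of at least 5 or 10, lists of equal length, 0.5 coverage, 250 bp around summits, windows of 10 and 100 kb, other ranks, other start windows, both gene ends as starts and the omission of each library in turn. Nothing in the labels ties equal replicate numbers to a shared animal or day, so libraries were treated as unpaired. The code was tested on simulated data. Python 3.11.15, pandas 2.3.3, numpy 2.4.6, scipy 1.17.1 and matplotlib 3.10.9 were used.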

Additional observations from a re-analysis of the deposited data

How the results depend on the processing

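No paired analysis was possible because equal replicate numbers are tied to no shared animal, batch or day, and no model was fitted that a block could enter. With only peaks of a −log10 q of at least 5 kept, the T1-only count went from 1 to 0. At 10 or more it was also 0, the T2-only count went from 8 to 5, and the T2-only start (p16Ink4a) was lost, leaving 0. In lists of equal length there were 4 T2-only regions, 2 T1-only regions and 0 T2-only starts. With windows of 10 kb there were 16 shared, 4 T2-only and 0 T1-only regions, of which 2 shared ones ranked higher in T2 and 4 in T1. With 100 kb there were 71 shared regions, of which 18 ranked higher in T2 and 16 in T1. Ranked among all peaks of a list, 4 shared regions in place of 9 ranked higher in T1. With both gene ends taken as starts, 0 were T2-only, by construction, since p16Ink4a starts inside the gene. Leaving out each library in turn, the T1-only count ranged from 1 to 3, the regions ranked higher in T2 from 11 to 15 and those ranked higher in T1 from 14 to 21, since 1 library then stands for its group. None of the 18 regions ranked apart changed direction under any alternative, though some lost the call and then had no direction. They were picked for the order of all libraries, so leaving out a library or raising the −log10 q threshold could hardly reverse them. Without T1 replicate 1, Cdkn2c had 1 T1-only region. By fold, 5 of the 9 higher in T2 and 8 of the 9 higher in T1 stayed apart. Peaks chosen by window before joining, an alternative added after the data were seen, gave 8 T2-only, 1 T1-only and 41 shared regions. Of the recomputed totals, 63 stayed within 1.5 times of the reported value and 25 did not. Causes of these shifts were otherwise not tested. Depth is unknown, and weak peaks such as that at p16Ink4a lie near the calling threshold, so the absence of a peak in T1 does not show closed chromatin.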
